A study of Homo sapiens with 18 samples.

Results

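The 70 replication-dependent histone genes in these data are gene rows matched by identifier to an older histone name, from HIST1H, HIST2H, HIST3H or HIST4H onward. They are among 20374 gene rows in any of 3 deposited tables. They comprise 5 rows of the linker histone H1, 18 of H2A, 22 of H2B, 13 of H3 and 12 of H4, pseudogenes among them. The H2B pseudogene HIST2H2BA is counted under both an older and a newer identifier. The table of H460 held 62 of them, that of H2023 63 and that of ABC-1 67, and 58 had a row in all 3.

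Cells of 3 lines from human lung cancers were exposed for 24 h to CCS1477 at 5 µM or to its solvent DMSO, with 3 libraries per group and 18 in all. H460 is a large cell carcinoma line and H2023 is labelled squamous, and the series calls both NRF2-activated. ABC-1 is an adenocarcinoma line that the series calls wildtype. CCS1477, also known as inobrodib, binds the bromodomain of the acetyltransferases p300 and CBP. The sample descriptions give 5 µM and the series text gives the same figure in mM, and 5 µM is used here. No label says that the 3 replicates of a group were separate cultures, so the p-values rest on a spread among libraries that can be purely technical.

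Replication-dependent histone genes supply the core and linker histones that package new DNA, and their transcription and mRNA stability rise when a cell enters S phase. Most lie in a large cluster on chromosome 6, with smaller clusters on chromosome 1. Their mRNAs have no introns and, unlike other mRNAs, end in a conserved stem-loop in place of a poly(A) tail. The stem-loop binding protein SLBP holds that end, and NPAT drives transcription of the clusters from histone locus bodies. Histone mRNA in a culture follows the share of cells in S phase, so in these bulk libraries fewer cells that express a gene and less RNA per cell cannot be told apart.

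The libraries of H460 held 26652298 to 33568180 recovered reads, those of H2023 15352631 to 18261159 and those of ABC-1 14483979 to 17483292. KRT8 and KRT18, keratins of simple epithelium, were expressed in every library, but not all epithelial markers were. In H460 EPCAM averaged 0.66 CPM (reads per 1000000 reads of the library) with DMSO, and CDH1 had no row. KRT19 averaged 687 CPM and the mesenchymal marker VIM 1334 CPM in the same libraries. Both other lines had rows for EPCAM and CDH1. The squamous markers KRT5, KRT6A, KRT14, DSG3 and SOX2 had no row in the H2023 table, and TP63 averaged 1.84 CPM in its DMSO libraries. In ABC-1 the lung adenocarcinoma marker NKX2-1 averaged 1.34 CPM, and NAPSA, SFTPB and SFTPC had no row, while SOX2 averaged 149 CPM with DMSO. 2 libraries of H460 stood apart. The spread between CCS1477 replicate 1 and each other library of its group was 40.7 and 44.7 times that of counting alone, where every remaining replicate pair lay between 2.34 and 7.98, and 0.795% of its reads were mitochondrial against 1.77 to 2.06% in the other H460 libraries. In DMSO replicate 1, genes with at least 100 CPM in ABC-1 and under 1 CPM in the other H460 libraries, 19 in number, summed to 58.2 CPM. The same sum, taken for each of the other H460 libraries in turn over 17 or 18 genes, was 6.35 to 13.3 CPM, and the cause was not tested. For H460 the counts, class sums, sums of copies and gene lists are therefore also given without CCS1477 replicate 1. All 24 members called in H460 kept call and direction without it, and 23 of 24 did without both libraries, where HIST1H2BL was no longer called. The H460 table was made with another annotation version than the other tables, with 321 of 15468 gene identifiers shared with H2023 differing in version and 0 of 15333 between H2023 and ABC-1.

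The stem-loop and the proximal promoter are what these genes have in common beside their name. A match to the stem-loop with at most 1 base off was found in GENCODE 29 transcripts of 31 of 65 members that have one, and it took 6 forms. Many annotated histone transcripts end at the stop codon, so a missing match says only that the annotated sequence does not hold it. The most frequent form was found in 16 members, all of them H2A, H2B or H3 genes, and the 7 matched H4 genes shared 2 other forms. The following sequences are shown with the 16 bases of the stem-loop in capitals, and come from GENCODE 29 (GRCh38), because their genes recur in the results.

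HIST3H2A: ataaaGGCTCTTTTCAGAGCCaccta

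HIST1H2AC: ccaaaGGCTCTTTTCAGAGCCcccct

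HIST1H2AG: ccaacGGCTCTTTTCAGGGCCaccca

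HIST1H3E: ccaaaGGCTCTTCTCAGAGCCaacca

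HIST1H4H: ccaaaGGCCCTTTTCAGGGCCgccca

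HIST4H4: caaaaGGCCCTTTTCAGGGCCcccaa

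HIST1H4I: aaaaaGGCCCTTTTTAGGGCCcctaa

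HIST2H4A: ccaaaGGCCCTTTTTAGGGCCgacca

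RefSeq promoters (GRCh38.p14, 300 bases that end shortly after the transcription start) were matched to 58 members, in 57 different windows, since HIST1H2AD and HIST1H3D have the same one. The TATA box TATAAA was found on either strand in 65.5% of them, against 12% of 27305 promoters of all genes. CCAAT, the box bound by NF-Y, was in 86.2% of the members' promoters and in 35.7% of all. It was in all 48 matched promoters of H1, H2A, H2B and H3 genes and in 2 of 10 of H4 genes. The octamer ATTTGCAT, bound by POU2F1, was in 13 of 17 H2B promoters and 10 of 15 H2A promoters, against 1.8% of all promoters, and in none of 10 H4 promoters. The windows of divergent genes overlap, so the same bases can be counted for both. The window shared by HIST1H2AD and HIST1H3D begins at base 26199244 of chromosome 6, beside the annotated HIST1H2AD, which reaches base 26199243. The annotated HIST1H3D reaches only base 26197250, so this window lies away from it. The octamers of HIST1H2AC, HIST1H2AD, HIST1H2AE, HIST1H2AG, HIST1H2AJ, HIST1H2AM and HIST2H2AC are the same bases as those of their divergent H2B neighbours. The promoters of HIST1H2BM, which fell in all 3 lines, of HIST3H2A, which rose in H460 and H2023, and of HIST1H4K, the H4 gene with the lowest change in H460, are printed because they differ in these motifs. A match is a description of the letters in this window only. Capitals mark these 3 motifs on either strand.

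HIST1H2BM, chr6:27814772-27815071, plus strand: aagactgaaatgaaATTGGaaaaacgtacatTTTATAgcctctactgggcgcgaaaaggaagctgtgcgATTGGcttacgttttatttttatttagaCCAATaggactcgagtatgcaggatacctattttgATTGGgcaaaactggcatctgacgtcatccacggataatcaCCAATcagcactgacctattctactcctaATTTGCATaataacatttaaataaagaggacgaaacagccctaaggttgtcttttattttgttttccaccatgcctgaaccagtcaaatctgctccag

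HIST3H2A, chr1:228457824-228458123, minus strand: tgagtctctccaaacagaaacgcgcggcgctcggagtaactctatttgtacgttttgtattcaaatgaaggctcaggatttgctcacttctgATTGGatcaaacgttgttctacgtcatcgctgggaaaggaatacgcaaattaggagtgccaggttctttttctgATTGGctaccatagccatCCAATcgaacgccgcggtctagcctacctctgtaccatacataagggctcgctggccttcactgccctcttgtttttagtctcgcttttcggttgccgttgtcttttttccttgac

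HIST1H4K, chr6:27831511-27831810, minus strand: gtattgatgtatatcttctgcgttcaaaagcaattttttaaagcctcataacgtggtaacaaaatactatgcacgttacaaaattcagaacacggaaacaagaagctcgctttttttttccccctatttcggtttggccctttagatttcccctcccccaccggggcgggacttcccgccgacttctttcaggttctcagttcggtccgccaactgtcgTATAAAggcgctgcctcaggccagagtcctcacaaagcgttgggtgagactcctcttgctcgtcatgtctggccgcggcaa

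Summed over all members, histone reads were far lower with CCS1477 than with DMSO in ABC-1 and H2023, and the sum did not separate the groups in H460. In ABC-1 the 3 DMSO libraries held 10538, 10050 and 9839 CPM of histone reads and the 3 CCS1477 libraries 3993, 3983 and 3733 CPM, a ratio of 0.385. In H2023 the DMSO libraries held 7577, 7244 and 7537 CPM and the CCS1477 libraries 3099, 3436 and 3507 CPM, a ratio of 0.449. The groups did not overlap in either line. In H460 the DMSO libraries held 12336, 11634 and 11708 CPM and the CCS1477 libraries 13314, 11527 and 11494 CPM. The ratio in H460 was 1.02, and 0.968 without CCS1477 replicate 1, the library with the highest sum.

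By class, over gene rows, H3 had the lowest ratio of summed CPM in ABC-1 and H2023. H3 sums went from 2156 ± 144 to 676 ± 26 CPM in ABC-1 (SD, n = 3), a ratio of 0.313, and from 1582 ± 33.5 to 578 ± 41 CPM in H2023, a ratio of 0.365. Those of H2B were 0.466 in ABC-1 and 0.515 in H2023. In ABC-1 and H2023 the ratios were 0.36 and 0.375 for the linker histones, 0.359 and 0.474 for H4, and 0.395 and 0.478 for H2A. In H460 the 5 class ratios lay between 0.957 for H2B and 1.13 for H2A, and the groups overlapped in each class. Without CCS1477 replicate 1 they lay between 0.928 and 1.03. These sums leave out rows of single transcripts, described further on, which for H4 went from 25.2 ± 2.36 to 253 ± 12.6 CPM in ABC-1 and from 36.4 ± 1.05 to 147 ± 4.14 CPM in H2023. With such rows added, an alternative chosen after seeing the data, the H4 ratios were 0.492 in ABC-1 and 0.581 in H2023, above those of H2B at 0.466 and 0.516, and H3 stayed at 0.313 and 0.365. The sums are descriptions and carry no test.

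**Figure D1:**
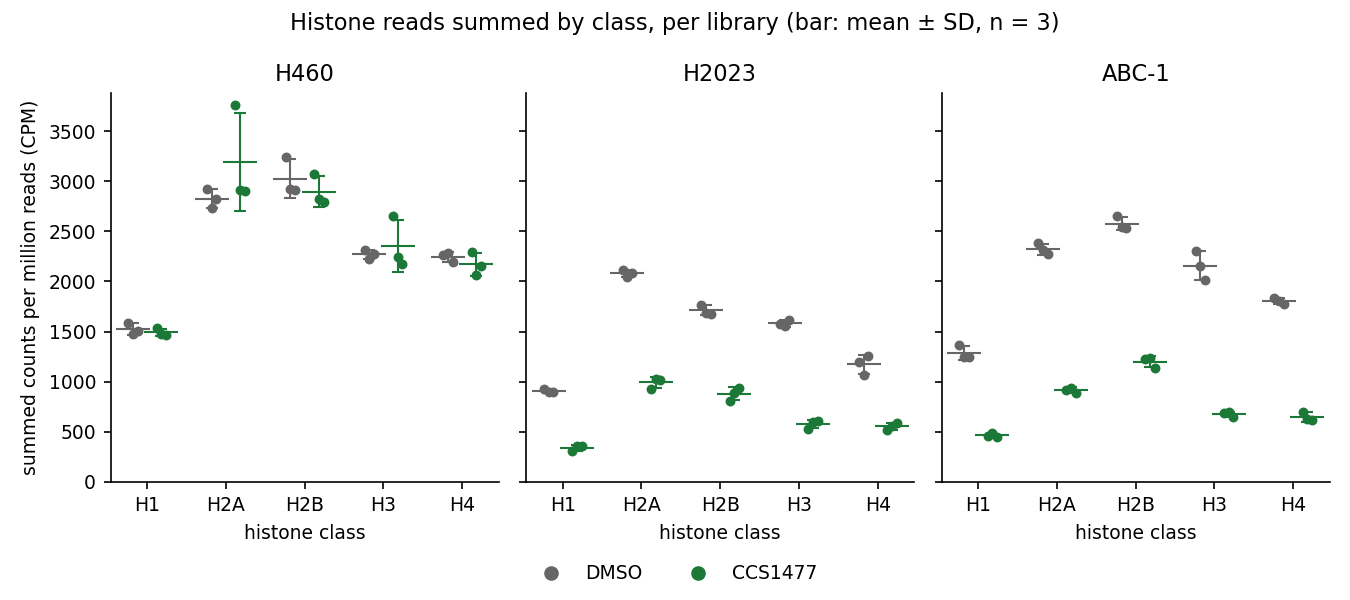
Histone reads summed by class in every library, in CPM, for H460, H2023 and ABC-1. Points are libraries and bars are the mean ± SD of 3. In H2023 and ABC-1 every CCS1477 point lies below every DMSO point of its class, and in H460 the groups overlap in all 5 classes, with CCS1477 replicate 1 highest in H2A and H3.

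For single genes, limma-trend was applied to the log2 values as deposited. A gene entered the test of a line when 3 or more of its 6 libraries reached 1 CPM, and it was called at a Benjamini-Hochberg adjusted p under 0.05 over all genes of that line. In ABC-1 62 members entered the test, and in H460 and in H2023 59 did. In ABC-1, 59 of 62 were lower with CCS1477, 2 were higher and 1 was not called, where 32.6% of all tested genes were lower and 33.5% higher, or 66.1% in either direction. Their median log2 change was -1.70, with 0.01 for all genes. In H2023, 53 of 59 were lower, 4 higher and 2 not called, where 31.9% of all tested genes were lower and 28.6% higher, or 60.6% in either direction. The median there was -1.25, with -0.01 for all genes. Of the higher members, HIST2H2BC in ABC-1 and HIST1H2BE in H2023 passed the filter only with the help of their CCS1477 libraries. In H460, 18 of 59 were lower, or 30.5%, where 27.9% of all tested genes were lower. A further 6 were higher, or 10.2%, where 28.2% of all genes were higher and 56.1% were called in either direction, and 35 were not called. The median of the members in H460 was -0.11, with 0.00 for all genes. Scaled by library totals, H460 had 13 lower and 8 higher members. Without CCS1477 replicate 1, 30 of 59 members were lower and 6 higher there, or 50.8% and 10.2%, where 30.5% of all tested genes were lower and 26.9% higher. Without both libraries that stood apart 26 were lower and 6 higher, or 44.1% and 10.2%, where 28.8% of all genes were lower and 26.1% higher. Groups did not overlap for 25 of 59 members in H460, 55 of 59 in H2023 and 61 of 62 in ABC-1, against 65%, 66.3% and 71.8% of all tested genes.

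**Figure D2:**
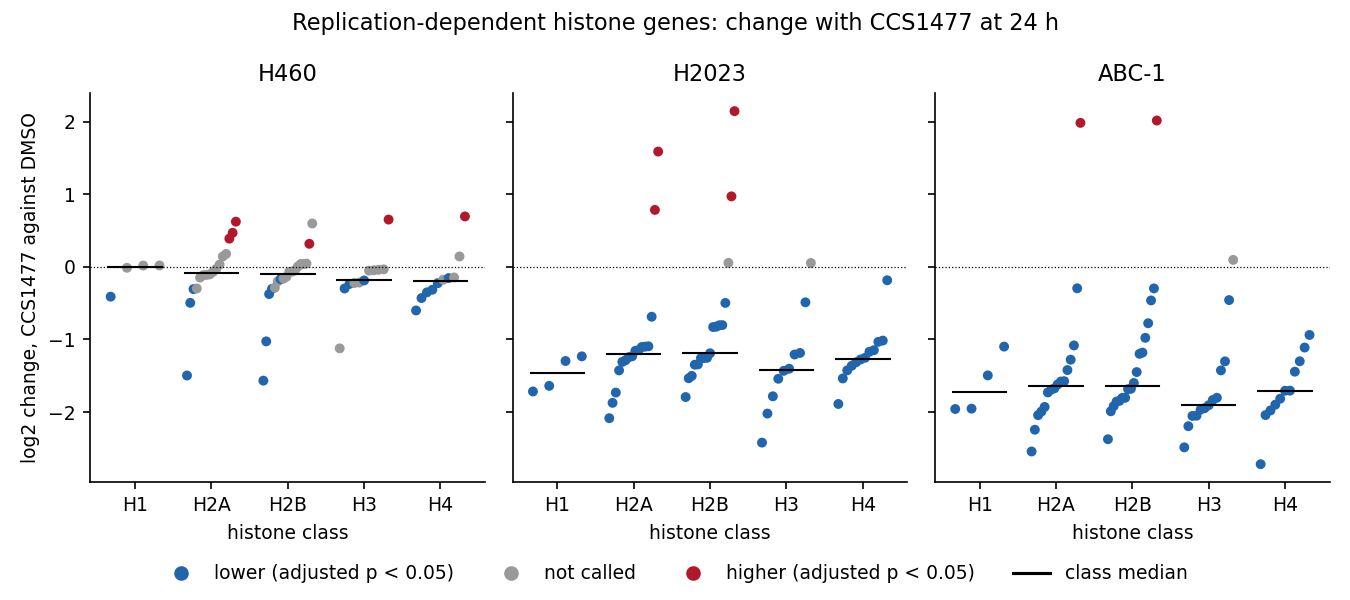
Log2 change of each tested member with CCS1477 against DMSO, on the deposited log2 scale, by histone class in H460, H2023 and ABC-1. Points are genes, coloured by the call at an adjusted p under 0.05, and lines are class medians. Medians lie between -1.19 and -1.47 in H2023 and between -1.64 and -1.91 in ABC-1, and between -0.20 and 0.00 in H460.

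Most members were lower in both H2023 and ABC-1. Of 55 members tested in all 3 lines, 49 were lower in both, and of these 49 in H460 17 were lower, 29 were not called and 3 were higher. No member was higher in all 3 lines. The members that were lower in all 3 were spread over the classes. They were HIST1H1E among the linker histones, HIST1H2AG, HIST1H2AJ and HIST1H2AL of H2A, HIST1H2BJ, HIST1H2BK, HIST1H2BL, HIST1H2BM and HIST2H2BF of H2B, HIST1H3A and HIST1H3B of H3, and HIST1H4A, HIST1H4C, HIST1H4D, HIST1H4E, HIST1H4H and HIST1H4K of H4. Of these 17 genes, 16 lie in the large cluster on chromosome 6. In that cluster 17 of 44 tested members were lower and 1 higher in H460, 44 of 45 were lower in H2023 and 48 of 48 in ABC-1.

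**Figure D3:**
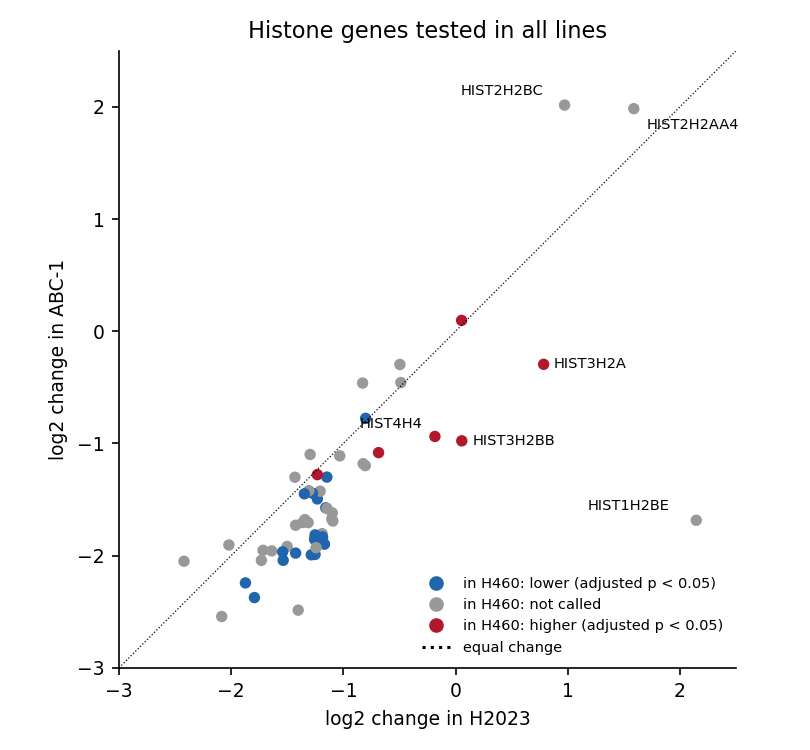
Log2 change in ABC-1 (y axis) against log2 change in H2023 (x axis) for the 55 members tested in all lines, coloured by the call in H460. Of the 55, 44 lie below the dotted line of equal change, so their log2 change was lower in ABC-1, and HIST1H2BE lies far to the right of it.

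The differences between lines were tested directly, as differences of within-line changes in 1 limma-trend fit over the 18 libraries, on 11757 genes that passed the filter in every line. The change in H460 was higher than in ABC-1 for 49 of 55 members and lower for 2, where 26.6% of all genes were higher and 24% lower (50.6% in all), and the members' median difference was 1.55 on the log2 scale. It was higher than in H2023 for 44 of 55 members and lower for 2, where 18.4% of all genes were higher and 11.9% lower (30.3% in all), with a median difference of 1.05. The change was lower in ABC-1 than in H2023 for 30 of 55 members, where 21.2% of all genes had a lower change in ABC-1. The opposite held for 3 members, where 23.6% of all genes had a higher change (44.8% in all), and the median difference was -0.39. All of the H1 and H4 genes tested, 4 and 10, had a higher change in H460 than in each of the other lines.

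Among the linker histones, which bind the DNA between nucleosomes, HIST1H1B encodes the variant H1.5. Its DMSO libraries held 391, 348 and 343 CPM in ABC-1 and its CCS1477 libraries 95.7, 102 and 92.5 CPM. In H2023 they held 336, 328 and 333 CPM with DMSO and 91.3, 112 and 112 CPM with CCS1477. The groups stood far apart in both lines, with log2 changes of -1.95 ± 0.05 (SE, adjusted p = 1.4e-10, limma-trend) and -1.72 ± 0.07 (adjusted p = 1e-08, limma-trend). In H460 the 3 DMSO libraries held 255, 225 and 232 CPM and the CCS1477 libraries 264, 238 and 241 CPM, which overlapped. HIST1H1D, the gene of H1.3, went the same way, with -1.96 in ABC-1, -1.64 in H2023 and a value of 0.02 in H460 that was not called. Its change in H460 was higher than in ABC-1 by 1.98 ± 0.11 on the log2 scale. HIST1H1C, which encodes H1.2, fell by 1.10 in ABC-1 and by 1.30 in H2023 on the log2 scale. HIST1H1E, which encodes H1.4, was the linker histone that also fell in H460. There its DMSO libraries held 508, 479 and 467 CPM and its CCS1477 libraries 324, 422 and 413 CPM, with replicate 1 the lowest, a log2 change of -0.41 ± 0.10 (adjusted p = 0.0072, limma-trend). It fell by 1.23 in H2023 and by 1.49 in ABC-1 on the log2 scale. HIST1H1T, the testis linker histone, had a row in ABC-1 alone, where it averaged 0.28 CPM with DMSO and was not tested.

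H2A forms a dimer with H2B on the outside of the nucleosome. All 16 tested H2A genes were called in both H2023 (14 lower, 2 higher) and ABC-1 (15 lower, 1 higher), and 3 were lower and 3 higher of 16 in H460. HIST1H2AB had the lowest change of its class in both. It held 92.9, 87.5 and 76.3 CPM with DMSO in ABC-1 and 15.1, 15.8 and 14.2 CPM with CCS1477, a log2 change of -2.54 ± 0.08. In H2023 it held 77.6, 77.4 and 81.2 CPM with DMSO and 18.5, 20 and 18.7 CPM with CCS1477, a log2 change of -2.08 ± 0.05. The H460 groups overlapped, since the DMSO libraries held 99.4, 89.8 and 96.1 CPM and the CCS1477 libraries 130, 76.7 and 79.1 CPM. Without CCS1477 replicate 1, the highest of these, HIST1H2AB was lower in H460 by a log2 change of -0.36 (adjusted p = 0.00028, limma-trend). With all libraries its change in H460 was above that in ABC-1 by 2.43 ± 0.19 and above that in H2023 by 1.97 ± 0.19 on the log2 scale.

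HIST1H2AL fell in all 3 lines, by 2.24 in ABC-1, 1.87 in H2023 and 0.50 in H460 on the log2 scale. It overlaps HIST1H2BN on the same strand, so reads of the pair can be hard to assign. HIST1H2AJ had a log2 change of -1.99 in ABC-1, -1.29 in H2023 and -0.31 in H460, where the groups overlapped and 1 library, CCS1477 replicate 1, reached 144 CPM against 108 CPM in each of the other CCS1477 libraries. HIST1H2AE and HIST1H2AI fell by 1.43 and 1.15 in H2023 and by 1.73 and 1.58 in ABC-1 on the log2 scale. HIST1H2AE in H460 had a value of -0.10 that was not called, and without CCS1477 replicate 1 its log2 change was -0.19 and was called (adjusted p = 0.0053, limma-trend). HIST1H2AI had a value of 0.14 in H460. Of the 100-base words of the HIST1H2AJ transcript 80.9% are also in that of HIST1H2AI, so reads can be split between these rows, and the call of HIST1H2AJ in H460 is uncertain. The sum of both rows went from 292 ± 3.58 to 92.2 ± 5.81 CPM in ABC-1 and from 213 ± 0.674 to 96.2 ± 5.87 CPM in H2023 (SD, n = 3). In H460 it went from 383 ± 13.3 to 405 ± 71.4 CPM, where the groups overlapped, at a ratio of 1.06, or 0.951 without CCS1477 replicate 1.

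HIST1H2AG had few reads in H460. It held 15.2, 4.20 and 3.57 CPM in the DMSO libraries and 2.74, 2.59 and 1.49 CPM in the CCS1477 libraries, so that the highest value was that of DMSO replicate 1. The log2 change was -1.50 ± 0.50 with all libraries and -0.85 without that one, and it missed the threshold without CCS1477 replicate 2 or 3 (adjusted p = 0.056 and 0.10, limma-trend). In H2023 and ABC-1 HIST1H2AG held 110 to 115 and 186 to 194 CPM with DMSO, and it fell by 1.16 and 1.57 on the log2 scale. HIST1H3C, HIST1H3D and HIST1H2BE were likewise highest in this H460 library, at 12.3, 11.5 and 4.24 CPM against 1.31 and 1.73, 5.33 and 4.78, and 1.02 and 1.06 CPM in the other DMSO libraries.

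3 H2A genes rose in H460. HIST2H2AC, on chromosome 1, held 196, 194 and 199 CPM with DMSO and 326, 242 and 250 CPM with CCS1477 in H460, a log2 change of 0.39 ± 0.10 (adjusted p = 0.011, limma-trend). It fell by 1.23 in H2023 and by 1.28 in ABC-1. HIST1H2AC held 118, 107 and 110 CPM with DMSO and 210, 144 and 142 CPM with CCS1477 in H460, a change of 0.47 ± 0.14 (adjusted p = 0.019, limma-trend), and fell by 0.69 in H2023 and by 1.08 in ABC-1. In both genes CCS1477 replicate 1 was the highest library. Without it the changes were 0.26 and 0.29, with adjusted p-values of 0.00029 and 0.00062 (limma-trend). HIST1H2AC was no longer called without DMSO replicate 2 or 3, where the adjusted p-values were 0.058 and 0.057.

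The other tested H2A genes, HIST1H2AD, HIST1H2AH, HIST1H2AK, HIST1H2AM and HIST2H2AB, were all lower in H2023 and ABC-1 and not called in H460. HIST1H2AK had the lowest change among them in each line, -2.04 in ABC-1, -1.73 in H2023 and -0.15 in H460. The HIST1H2AM transcript shares 84% of its 100-base words with that of HIST1H3J, so reads of these rows can be split as well.

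HIST3H2A lies with HIST3H2BB on the long arm of chromosome 1, apart from the larger clusters. It held 102, 97.2 and 101 CPM with DMSO and 195, 149 and 147 CPM with CCS1477 in H460. The H2023 libraries held 36.8, 37.1 and 40 CPM with DMSO and 66.6, 69.1 and 68.3 CPM with CCS1477. The groups were apart in both lines, with changes of 0.62 ± 0.10 (adjusted p = 0.00098, limma-trend) and 0.79 ± 0.05 (adjusted p = 2.6e-07, limma-trend). Without CCS1477 replicate 1 the change in H460 was 0.49 (adjusted p = 9.5e-06, limma-trend). In ABC-1 it held 30, 27.2 and 25.7 CPM with DMSO and 22.8, 22.7 and 24.7 CPM with CCS1477, a small fall of 0.29 on the log2 scale that kept the groups apart. Its change in ABC-1 was lower than in H2023 by 1.08 ± 0.12 on the log2 scale.

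HIST2H2AA3 and HIST2H2AA4 are copies of each other on chromosome 1, and their reads can be split between rows in ways that the values cannot show. The row of HIST2H2AA3 fell by 1.42 in ABC-1 and 1.31 in H2023, while that of HIST2H2AA4 rose by 1.98 and 1.59 on the log2 scale. Summed over both rows, the reads held 628, 604 and 589 CPM with DMSO and 329, 332 and 329 CPM with CCS1477 in ABC-1. In H2023 the sum was 879, 861 and 865 CPM with DMSO and 397, 431 and 428 CPM with CCS1477. The groups did not overlap, at ratios of 0.544 and 0.482. In H460 the sum held 962, 916 and 968 CPM with DMSO and 1353, 1015 and 1006 CPM with CCS1477, a ratio of 1.19, or 1.07 without CCS1477 replicate 1. The rise of the HIST2H2AA4 row in H2023 rested on libraries that overlapped, and its change was 0.98 without DMSO replicate 3. It missed the threshold without DMSO replicate 1 or CCS1477 replicate 3 (adjusted p = 0.0504 and 0.0542, limma-trend).

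**Figure D4:**
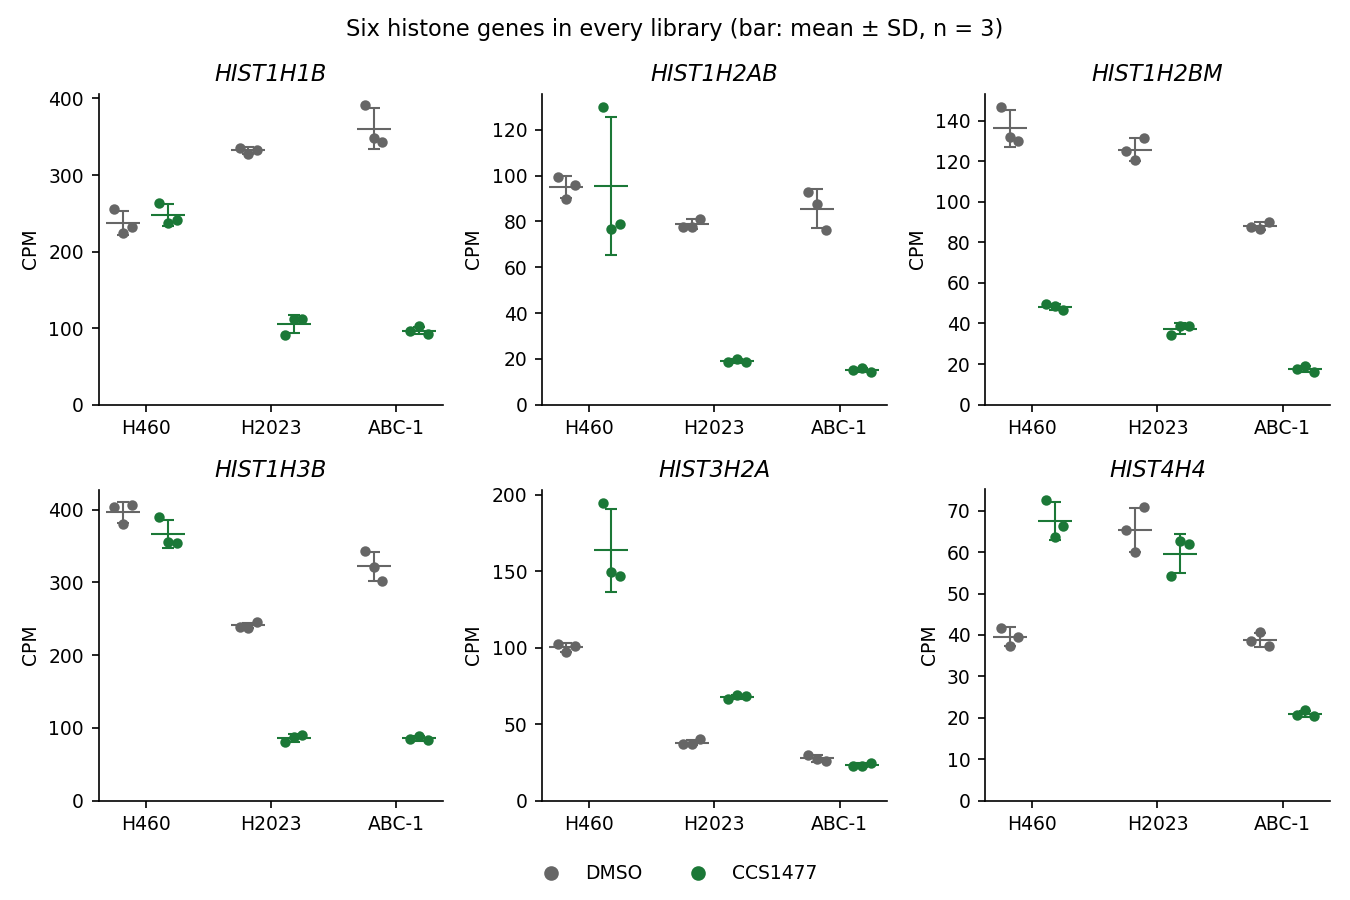
CPM of 6 members in every library of H460, H2023 and ABC-1. Points are libraries and bars are the mean ± SD of 3. HIST1H2BM fell in all lines, HIST1H1B, HIST1H2AB and HIST1H3B fell far in H2023 and ABC-1, HIST3H2A rose in H460 and H2023, and HIST4H4 rose in H460.

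Among the H2B genes HIST1H2BM had the lowest change in H460. It held 147, 132 and 130 CPM with DMSO and 49.5, 48.5 and 46.7 CPM with CCS1477 in H460, a log2 change of -1.57 ± 0.05 (adjusted p = 4.4e-07, limma-trend). In H2023 the gene held 125, 120 and 132 CPM with DMSO and 34.5, 38.9 and 38.9 CPM with CCS1477, a change of -1.79 ± 0.06. In ABC-1 it held 87.7, 86.5 and 90.1 CPM with DMSO and 17.3, 19.2 and 16.1 CPM with CCS1477, a change of -2.37 ± 0.06. The groups were far apart in every line, and the change in H460 stayed between -1.60 and -1.51 whichever library was left out. The difference between H460 and H2023, 0.23 ± 0.09 on the log2 scale, was not called (adjusted p = 0.059, limma-trend). HIST1H2AJ, its divergent neighbour, shares 256 of the 300 bases of its promoter window, and in H460 it had the change of -0.31 given above.

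HIST1H2BJ was the other H2B gene whose fall in H460 was large. It held 49.2, 43.7 and 39.5 CPM with DMSO and 21.8, 23.7 and 22.4 CPM with CCS1477 there, a log2 change of -1.03 ± 0.08 (adjusted p = 2.5e-05, limma-trend). It fell by 1.26 in H2023 and by 1.85 in ABC-1. HIST1H2BJ and HIST1H2AG form a divergent pair and were both lower in all 3 lines. HIST2H2BF fell by 0.37, 1.35 and 1.45 in H460, H2023 and ABC-1 on the log2 scale, with HIST1H2BL at -0.17, -1.25 and -1.99. HIST1H2BK changed less unequally, by -0.30, -0.80 and -0.78. HIST2H2BF overlaps other annotated genes on both strands, and HIST1H2BD does so as well.

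HIST1H2BD and HIST2H2BE were lower in ABC-1 by less than in H2023. HIST2H2BE held 346, 315 and 327 CPM with DMSO and 247, 257 and 242 CPM with CCS1477 in ABC-1. Its H2023 libraries held 317, 315 and 283 CPM with DMSO and 166, 175 and 194 CPM with CCS1477. The log2 changes were -0.46 ± 0.04 and -0.83 ± 0.06, and their difference was 0.37 ± 0.11 (adjusted p = 0.011, limma-trend). HIST1H2BD changed by -0.30 in ABC-1 and -0.50 in H2023, a difference of 0.20 ± 0.06 (adjusted p = 0.019, limma-trend). HIST1H2BC changed by -1.18 and -0.82 in the same lines. In H460 these 3 genes had values between 0.00 and 0.05 that were not called.

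HIST1H2BE differed between lines in level as well as in change. With DMSO it held 126, 117 and 118 CPM in ABC-1, 1.18, 0.712 and 0.650 CPM in H2023, and 4.24, 1.02 and 1.06 CPM in H460. With CCS1477 it fell to 42.1, 37.4 and 37.2 CPM in ABC-1, a log2 change of -1.68 ± 0.06. In H2023 it rose to 4.43, 4.48 and 5.03 CPM, a change of 2.15 ± 0.21 (adjusted p = 8e-06, limma-trend). The difference of ABC-1 minus H2023 was -3.83 ± 0.47 on the log2 scale. HIST2H2BC, a transcribed pseudogene next to the HIST2 genes, also rose from a low level, from 0.956, 0.958 and 0.829 to 4.12, 5.33 and 4.57 CPM in ABC-1 and from 2.41, 2.52 and 2.53 to 5.21, 4.91 and 5.82 CPM in H2023. Its changes were 2.02 ± 0.18 and 0.97 ± 0.14 on the log2 scale. HIST1H2BE in H2023 and HIST2H2BC in ABC-1 passed the filter of 1 CPM only with the help of their CCS1477 libraries. A member this low that did not rise would not have been tested. HIST2H2BC overlaps HIST2H2BD on the other strand.

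HIST3H2BB, the partner of HIST3H2A, shares 271 of the 300 bases of its promoter window with it. In H460 it held 143, 137 and 130 CPM with DMSO and 210, 164 and 167 CPM with CCS1477, a log2 change of 0.32 ± 0.09 (adjusted p = 0.017, limma-trend) that was 0.21 without CCS1477 replicate 1 and missed the threshold without DMSO replicate 3 (adjusted p = 0.064, limma-trend). In H2023 it held 41, 39.9 and 38.3 CPM with DMSO and 39.1, 43.9 and 45.7 CPM with CCS1477, which overlapped. In ABC-1 it held 51.2, 51.3 and 47.7 CPM with DMSO and 26.5, 28.3 and 24.4 CPM with CCS1477, a fall of 0.98 on the log2 scale. Its change in ABC-1 was lower than in H2023 by 1.03 ± 0.12.

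The other tested H2B genes, HIST1H2BB, HIST1H2BF, HIST1H2BG, HIST1H2BH, HIST1H2BI, HIST1H2BN and HIST1H2BO, were lower wherever they were tested in H2023 and ABC-1 and were not called in H460. Their changes ran from -1.92 for HIST1H2BI to -1.20 for HIST1H2BG in ABC-1 and from -1.53 for HIST1H2BB to -0.80 for HIST1H2BG in H2023. HIST1H2BB was unevenly expressed, at 80.8 CPM with DMSO in H2023 against 1.09 in ABC-1 and 1.32 in H460, where it was not tested.

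Divergent pairs of histone genes with overlapping promoter windows numbered 11 among the members, over 10 different pairs of windows, since HIST1H2BF was paired with both HIST1H2AD and HIST1H3D, which share a window. That window lies beside the annotated HIST1H2AD and away from the annotated HIST1H3D. Both genes of a pair were lower in 10 of 11 pairs in H2023, in 11 of 11 in ABC-1 and in 2 of 11 in H460, and HIST3H2A with HIST3H2BB was the pair in which both rose in H460. Of all tested members, 89.8% were lower in H2023, 95.2% in ABC-1 and 30.5% in H460, so most members would share a direction in H2023 and ABC-1 whether paired or not. No pair was called in opposite directions, which these shares make likely. The median gap between the log2 changes of a pair was 0.36 in ABC-1, 0.39 in H2023 and 0.30 in H460, and it was not compared with that of unpaired members.

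Of the H3 genes, which with H4 form the core of the nucleosome, HIST1H3B held 343, 322 and 302 CPM with DMSO and 84.3, 89.4 and 83.2 CPM with CCS1477 in ABC-1. The H2023 libraries held 239, 238 and 245 CPM with DMSO and 80, 87 and 90.2 CPM with CCS1477. The changes were -1.97 ± 0.05 (adjusted p = 9.4e-11, limma-trend) and -1.54 ± 0.05 (adjusted p = 1.5e-09, limma-trend), with groups far apart. In H460 it held 404, 380 and 406 CPM with DMSO and 389, 356 and 355 CPM with CCS1477, a change of -0.19 ± 0.05 with groups that overlapped (adjusted p = 0.012, limma-trend). HIST1H3A fell in all 3 lines as well, by 1.83 in ABC-1, 1.19 in H2023 and 0.24 in H460 on the log2 scale. HIST1H3H was lower by 1.21 in H2023 and 1.43 in ABC-1 and had a value of -0.05 in H460.

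HIST1H3D and HIST1H3C were expressed in H2023 and ABC-1 and had few reads in H460. HIST1H3D held 83.2, 76.4 and 82 CPM with DMSO and 20.7, 21.6 and 18.9 CPM with CCS1477 in H2023, a log2 change of -2.02 ± 0.06, and it fell by 1.91 in ABC-1. It overlaps another annotated gene on its strand. HIST1H3C held 78.9, 72.1 and 76.2 CPM with DMSO and 15.2, 14.1 and 12.4 CPM with CCS1477 in ABC-1, a change of -2.49 ± 0.07. In H2023 it changed by -1.40 ± 0.04. The difference of ABC-1 minus H2023 was -1.08 with an SE of 0.68 (adjusted p = 0.21, limma-trend), in a fit that takes 1 spread from all 3 lines. The DMSO libraries of H460 held 12.3, 1.31 and 1.73 CPM, and the SE of the change within H460 was 0.71, against 0.07 within ABC-1, so this p does not show that ABC-1 and H2023 responded alike.

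The other tested H3 genes, HIST1H3E, HIST1H3F, HIST1H3G, HIST1H3I, HIST1H3J and HIST2H3D, were all lower in ABC-1, from -2.19 for HIST1H3I to -0.46 for HIST1H3E. HIST1H3E, the member with the deviating stem-loop printed above, changed by -0.49 in H2023. HIST1H3J was the H3 gene beside HIST1H3A and HIST1H3B that fell in H460, by 0.30 on the log2 scale, and it was not tested in H2023, where it averaged 1.05 CPM with DMSO.

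HIST2H3A and HIST2H3C encode the same protein, and every 100-base word of their annotated transcripts is shared. The row of HIST2H3A fell by 2.42 in H2023 and by 2.05 in ABC-1, and the row of HIST2H3C rose by 0.65 ± 0.07 in H460 (adjusted p = 0.00011, limma-trend) and was not called in the other 2. The sum of both rows held 689, 694 and 714 CPM with DMSO and 221, 266 and 260 CPM with CCS1477 in H2023. In ABC-1 it held 708, 673 and 608 CPM with DMSO and 242, 247 and 226 CPM with CCS1477. The groups did not overlap, at ratios of 0.356 and 0.359. In H460 the sum held 901, 890 and 894 CPM with DMSO and 1214, 976 and 939 CPM with CCS1477, a ratio of 1.17, or 1.07 without CCS1477 replicate 1. Both genes lie opposite to HIST2H4A or its copy HIST2H4B on the other strand, and the use of strand in counting is not given in the sources used here.

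All H4 genes encode 1 protein, and 11 of 11 were lower in ABC-1 and 12 of 12 in H2023. HIST1H4I had the lowest change of any member in ABC-1. It held 97.8, 86.4 and 98.3 CPM with DMSO and 15.3, 15.3 and 13.5 CPM with CCS1477 there, a change of -2.72 ± 0.06, and it fell by 1.89 in H2023. No row for HIST1H4I was used in H460. HIST1H4K had the lowest change of its class in H460, where it held 357, 334 and 346 CPM with DMSO and 219, 252 and 249 CPM with CCS1477, -0.60 ± 0.06 on the log2 scale (adjusted p = 8e-05, limma-trend). Every 100-base stretch of its annotated transcript is also found in that of HIST1H4J, so the sum of the pair is given beside it. The sum went from 343 ± 24.1 to 101 ± 6.21 CPM in ABC-1, from 229 ± 22.7 to 101 ± 10.7 CPM in H2023 and from 512 ± 28 to 395 ± 4.52 CPM in H460 (SD, n = 3), and the groups did not overlap in any line.

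HIST1H4C, HIST1H4D and HIST1H4A also fell in every line. HIST1H4C held 192, 201 and 181 CPM with DMSO and 154, 162 and 169 CPM with CCS1477 in H460, a change of -0.31 ± 0.05, and changed by -1.25 in H2023 and -1.82 in ABC-1. HIST1H4D changed by -0.43, -1.43 and -1.98 and HIST1H4A by -0.35, -1.54 and -2.04 in H460, H2023 and ABC-1. HIST1H4E and HIST1H4H had smaller changes in H460, -0.15 and -0.22. HIST1H4E was lower by 1.15 and 1.30 and HIST1H4H by 1.28 and 1.44 in H2023 and ABC-1. HIST2H4A, on chromosome 1, was lower by 1.03 in H2023 and by 1.11 in ABC-1, and had a value of 0.14 in H460 that was not called (adjusted p = 0.063, limma-trend).

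HIST1H4B, HIST1H4J and HIST1H4L were lower wherever they were tested in H2023 and ABC-1, by 1.36, 1.31 and 1.02 on the log2 scale in H2023. HIST1H4B and HIST1H4J were not called in H460.

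HIST4H4 is the single member on chromosome 12, away from every cluster. In H460 it held 41.8, 37.2 and 39.6 CPM with DMSO and 72.5, 63.7 and 66.2 CPM with CCS1477, the highest change among the called members of that line at 0.70 ± 0.06 (adjusted p = 5.3e-05, limma-trend). In ABC-1 it held 38.5, 40.7 and 37.4 CPM with DMSO and 20.8, 21.9 and 20.4 CPM with CCS1477, a change of -0.94 ± 0.06. In H2023 the gene held 65.3, 60 and 70.8 CPM with DMSO and 54.2, 62.7 and 61.9 CPM with CCS1477. That overlapping change, -0.18 ± 0.07 (adjusted p = 0.044, limma-trend), missed the threshold under several settings.

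Members that were not tested had few reads. The pseudogenes HIST1H2APS4, HIST1H2APS5, HIST2H2BD and HIST3H2BA passed the filter in no line, nor did the newer of 2 identifiers of HIST2H2BA, whose older identifier had a row in H460 alone and was not called there. HIST1H3G had 6.00 CPM in H460 DMSO replicate 1 and at most 0.33 CPM in the other H460 libraries, and was not tested there.

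Some histone genes are known to make polyadenylated mRNA as well, and 11 members for which this is reported were set apart. Their median log2 change was -1.08 in ABC-1, -0.80 in H2023 and 0.02 in H460, and that of the other members was -1.80, -1.26 and -0.15. All 11 were lower in ABC-1, 10 were lower and 1 higher in H2023, and 2 were lower and 2 higher in H460. The list includes HIST1H2AC, HIST1H2BC, HIST1H2BD, HIST1H2BK, HIST2H2BE and HIST4H4 among others. No test was run between the lists.

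The tables also hold rows of single transcripts, and most of those of histone genes rose with CCS1477. There were 15 such rows, and the 14 found in GENCODE 29 all have 2 or 3 exons. Of these 9 are annotated as targets of nonsense-mediated decay, and 8 hold the full stem-loop 240 to 1655 bases before their end. In a fit over gene and transcript rows together, 9 of 10 tested rows rose and 1 fell in ABC-1, where 7.84% of all transcript rows rose and 9.72% fell. In H2023 9 of 11 rose, where 6.52% of all transcript rows rose and 7.1% fell, and in H460 5 of 9 rose, where 6.58% rose and 8.32% fell. The risen rows belonged to HIST1H2AC, HIST1H4H, HIST2H4A, HIST2H4B and HIST4H4, and no tested H2B row rose in any line. Several are isoforms of the same gene, and every 100-base word of the longest HIST2H4A transcript is also in those of HIST2H4B. Reads can be split between such rows, so they are not separate observations. Some risen rows were under 1 CPM in every DMSO library and passed the filter only through their CCS1477 libraries. They were ENST00000613412, ENST00000634560 and ENST00000537853 in ABC-1, ENST00000537096 in H2023 and ENST00000358064 in H460. Other risen rows had fewer than 3 DMSO libraries at 1 CPM and passed only with the help of CCS1477 libraries. These were ENST00000634956 and ENST00000618193 in ABC-1, ENST00000634956, ENST00000634560 and ENST00000537853 in H2023, and ENST00000614272 in H460. A row of the first kind that did not rise would not have been tested, and one of the second might not have been. Calls of both kinds add no support to the counts. How the authors divided reads between gene and transcript rows is not given in the sources used here.

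The HIST2H4A transcript ENST00000614272 carries the loop printed above 564 bases before its end and a poly(A) signal (the usual hexamer or its commonest variant) in its last 60 bases. It held 1.15, 1.98 and 1.31 CPM with DMSO and 39.1, 38.9 and 43.2 CPM with CCS1477 in ABC-1. Its H2023 libraries held 1.40, 2.96 and 1.88 CPM with DMSO and 11.7, 12.3 and 13.9 CPM with CCS1477, and in H460 0.938, 1.13 and 1.49 and then 9.98, 6.72 and 7.46 CPM. It rose in all lines, by 4.52 ± 0.19, 2.47 ± 0.25 and 2.57 ± 0.22 on the log2 scale, while the gene row of HIST2H4A fell in the first 2. In H460 this transcript passed the filter only with the help of its CCS1477 libraries. The HIST1H2AC transcript ENST00000314088 rose in all lines too, from 12.1, 9.65 and 11 to 68.3, 69.1 and 72.6 CPM in ABC-1, from 15.1, 14 and 13.5 to 34.5, 37.3 and 35.7 CPM in H2023, and from 6.12, 7.70 and 7.32 to 17.1, 17.3 and 19.8 CPM in H460. The HIST1H4H transcript ENST00000634560 went from 0.446, 0.703 and 0.690 to 14.9, 15.8 and 17 CPM in ABC-1 and from 1.51, 0.493 and 1.43 to 5.47, 4.85 and 6 CPM in H2023, and was not called in H460. HIST2H4B, the copy of HIST2H4A, has no gene row among the members, and its transcript ENST00000612061 rose from 10.7, 15.8 and 17.6 to 119, 139 and 130 CPM in ABC-1. The transcript that fell there was ENST00000449538 of HIST1H2BN, by 1.61 on the log2 scale. Without any 1 of the CCS1477 libraries of ABC-1, 5 of 7 tested transcript rows rose. Fewer rows were tested then, since those under 1 CPM in every DMSO library no longer passed the filter. With the transcript rows added to their gene rows, 25 members were called in H460, 18 of them lower.

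**Figure D5:**
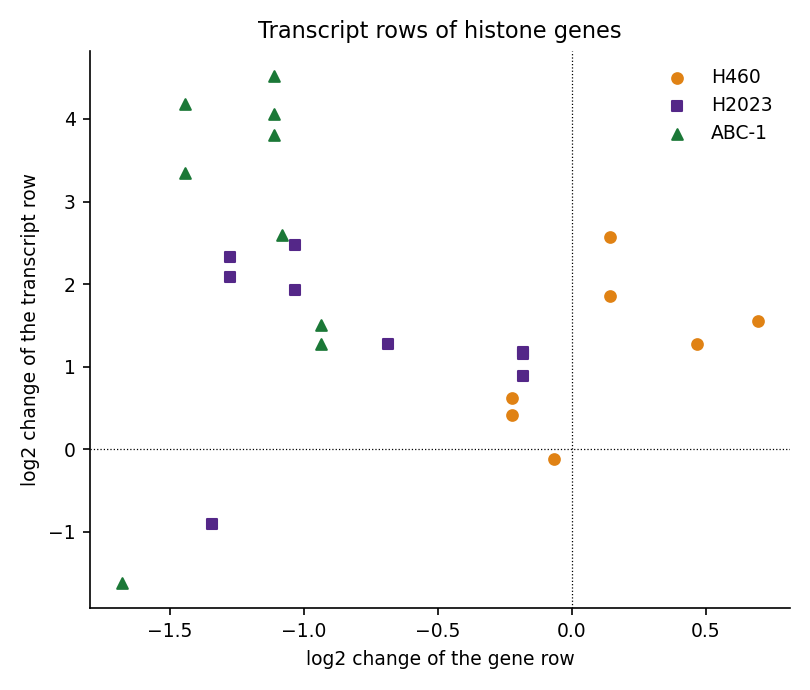
Log2 change of single-transcript rows (y axis) against the log2 change of the gene row of the same gene (x axis), on the deposited log2 scale, for the 25 tested rows of H460, H2023 and ABC-1 whose gene row was tested too. In 24 of 25 the transcript row lies above the gene row, and most points of H2023 and ABC-1 sit in the upper left, with the gene row below 0 and the transcript row above it. Some of the transcript rows passed the filter only through their CCS1477 libraries.

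Genes that act beside the members were taken from 5 other lists. Of 42 genes of DNA replication, which are used in the same phase of the cell cycle, 41 were lower in ABC-1 with a median log2 change of -1.23, 37 were lower in H2023 with -0.68, and 26 were lower and 4 higher in H460 with -0.24 (27 and 4 without CCS1477 replicate 1). These medians stood in the same order over the lines as those of the members. Of all tested genes 32.6% were lower in ABC-1, 31.9% in H2023 and 27.9% in H460, where 28.2% were higher. MCM2, a subunit of the replicative helicase, fell by 1.72, 1.10 and 0.41 on the log2 scale in ABC-1, H2023 and H460. The change of 40 of these 42 genes was higher in H460 than in ABC-1, where 26.6% of all tested genes had a higher change. That of 33 was higher than in H2023, where 18.4% of all tested genes had one. The share of cells in S phase was not measured, and its part in the results was not tested.

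Among 17 tested regulators and processing factors of histone mRNA, 11 were lower and 3 higher in ABC-1, 9 lower and 3 higher in H2023, and 6 lower and 2 higher in H460 (8 and 1 without CCS1477 replicate 1). In H460 this was 47.1% called, where 56.1% of all tested genes were. SLBP fell by 0.36 in ABC-1 and by 0.15 in H2023 on the log2 scale, and in H460 its change of -0.12 was not called (adjusted p = 0.14, limma-trend). NPAT fell by 0.45 and 0.27 in the same lines and had a value of -0.03 in H460. ERI1, an exonuclease that acts on the histone stem-loop, fell in all 3. EP300 had a change of 0.29 in H460 and was not called in H2023 or ABC-1, and CREBBP was not called in any line. Of 19 histone chaperones and assembly factors 16 were lower and 2 higher in ABC-1, 12 lower and 2 higher in H2023, and 8 lower and 4 higher in H460 (9 and 4 without CCS1477 replicate 1). For each of these lists the shares of all tested genes are those given for the members, 32.6%, 31.9% and 27.9% lower and 33.5%, 28.6% and 28.2% higher in ABC-1, H2023 and H460. CHAF1A, the large subunit of the factor that loads H3 and H4 behind the replication fork, fell by 1.37 in ABC-1 and by 0.89 in H2023.

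Replication-independent histone genes encode variants and have polyadenylated mRNAs. Of 11 tested in H460, 7 were higher and 1 lower, with and without CCS1477 replicate 1, of 11 in H2023, 8 were higher and 3 lower, and of 10 in ABC-1, 5 were higher and 4 lower. In the same order of lines 28.2%, 28.6% and 33.5% of all tested genes were higher and 27.9%, 31.9% and 32.6% lower. H3F3A and H3F3B, which both encode H3.3, rose by 0.45 and 0.41 in ABC-1, by 0.47 and 0.49 in H2023 and by 0.49 and 0.30 in H460. H1F0, a linker histone of non-dividing cells, rose by 1.67 in H460, by 0.98 in H2023 and by 0.34 in ABC-1. CENPA, the H3 of centromeres, fell by 1.81 in ABC-1 and by 0.57 in H2023, and its change of -0.04 in H460 was not called (adjusted p = 0.65, limma-trend).

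RNA without a poly(A) tail of other kinds was followed, since the step that selected RNA is not given in the sources used here. Of 15 tested small RNAs of this type, such as RN7SK and RMRP, 10 were lower in H460 by limma-trend, with a median of -0.55, and 12 without CCS1477 replicate 1, with a median of -0.46. In H2023 8 were higher with a median of 0.29, and in ABC-1 1 was higher and 2 lower with a median of 0.05. Of all tested genes 27.9% were lower in H460, or 30.5% without CCS1477 replicate 1. In H2023 28.6% of all tested genes were higher, and in ABC-1 33.5% were higher and 32.6% lower. Their summed level was 74485 to 84230 CPM with DMSO and 52938 to 71324 CPM with CCS1477 in H460, and CCS1477 replicate 1 was the lowest. In H2023 it was 49389 to 62294 and then 69385 to 77898 CPM, and in ABC-1 36491 to 37948 and then 39390 to 45051 CPM. The sum was above that of every DMSO library in each CCS1477 library of H2023 and ABC-1, although the median change in ABC-1 was 0.05. The part of RNA selection in the results was not tested.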

How the data were processed

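RNA of 18 libraries was sequenced as 150-base read pairs, per the labels' protocols, and the submitters' processing notes name GRCh38. How RNA was selected and which aligner, counter and strand setting were used is not given in the sources used here. The authors deposited 1 table per line with log2 values per gene and transcript row. A row without reads is at 2, and the values equal log2 of reads over a size factor plus 4, so reads were recovered. In every library 100% of the values up to 1000 reads came out whole within 0.1. CPM (reads per 1000000) is over all rows, of which transcript rows held 9.19 to 10.7% of reads.

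Gene rows carry no symbols. Names were matched by Ensembl identifier to GENCODE 29, or through RefSeq synonyms for identifiers not in it. Genes that reached 1 CPM in 3 or more of 6 libraries were fitted by limma-trend (limma 3.58.1, R 4.3.3) within each line on the log2 values as the authors deposited them, with Benjamini-Hochberg adjustment over all tested genes, two-sided, at 0.05. The tables were normalized separately, so lines are compared only as differences of within-line changes. The script was tested on simulated data. The alternatives were other scalings, constants and filters, limma-voom, summed transcript rows, a replicate block, 1 fit over all libraries and each library left out. Leaving out both H460 libraries that stood apart, class sums with transcript rows, and lists and sums of copies without H460 libraries were chosen after seeing the data.

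Named genes are the 4 members of a class with the highest mean CPM, the 3 highest and lowest changes and differences called, members called in opposite directions or in all 3 lines, and up to 4 genes of each other list. Other members were named after their values were seen. Members and lists were chosen with earlier results of these data known. SE is from the limma fit, and ± without SE beside CPM is the SD.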

Additional observations from a re-analysis of the deposited data

Results flagged for a closer look

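Responses that differed between the lines by the test of the difference itself are listed here, as log2 differences with limma-trend and adjustment over all genes. Of 55 members, 46 differed between H460 and H2023, where 30.3% of all genes did, 51 between H460 and ABC-1, where 50.6% did, and 33 between ABC-1 and H2023, where 44.8% did. Among members called in opposite directions in 2 lines, HIST1H2AC differed by 1.16 for H460 minus H2023, by 1.55 for H460 minus ABC-1 and by -0.40 for ABC-1 minus H2023. HIST2H2AC differed by 1.62 for H460 minus H2023 and by 1.67 for H460 minus ABC-1. HIST3H2A differed by 0.92 for H460 minus ABC-1 and by -1.08 for ABC-1 minus H2023. HIST3H2BB differed by 1.29 and -1.03 in the same comparisons. HIST4H4 differed by 0.88 for H460 minus H2023, by 1.63 for H460 minus ABC-1 and by -0.75 for ABC-1 minus H2023. HIST1H2BE differed by -2.28 for H460 minus H2023, by 1.55 for H460 minus ABC-1 and by -3.83 for ABC-1 minus H2023, from unequal levels. Rows of single transcripts lie outside the measurement per gene, and those of histone genes that were higher with CCS1477 numbered 9 in ABC-1, 9 in H2023 and 5 in H460. In each line some of these rows passed the filter only through their CCS1477 libraries, and several belong to the same gene or to its copy. Groups of 3 libraries are too small for a test of single outlying libraries.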

How the results depend on the processing

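Of 344 alternative values of the counts, medians and sums, 340 kept their direction and stayed within their limits, and 4 moved. The limits were wide, a set factor for counts and the SD between CCS1477 libraries for medians and sums. The values also overlap, since each count was scored in total and by direction. Leaving out a library of a line that a difference does not involve can hardly move it. The lower members of H460 numbered 18 with all libraries, and 14 to 30 with 1 library left out, where 30 is the count without CCS1477 replicate 1. Transcript rows that rose in ABC-1 numbered 9, and 5 to 9 with 1 library left out. With 1 library left out, the members called were 55 to 57 in H2023 and 60 or 61 in ABC-1, and the differences called were 45 to 48 for H460 minus H2023, 50 to 53 for H460 minus ABC-1 and 27 to 37 for ABC-1 minus H2023. Deviations of same-numbered DMSO and CCS1477 libraries from their group means had correlations of -0.10 to 0.10, positive in H460 and H2023 and negative in ABC-1. Values this weak show no strong shared effect, and they cannot tell whether the libraries were paired. With the replicate number as a block, 61 members were called in ABC-1, 57 in H2023 and 27 in H460. Under library totals the median change of all genes in H460 was 0.07.

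Of 220 values of single members, 187 kept direction and side of the threshold throughout. The sign turned for 29 of their alternative values, none of which passed the threshold. In H460 under library totals these were HIST1H1B at 0.061, HIST1H3H at 0.026 and HIST2H3A at 0.039, and under relative log expression HIST1H2BC at -0.00222. Without both H460 libraries that stood apart they were HIST1H1C at -0.045, HIST1H1D at -0.013, HIST1H2BE at 0.43, HIST2H2BE at -0.014 and HIST1H3D at 0.071. In 1 fit over all libraries HIST2H3C in ABC-1 was at -0.095. With 1 library left out, HIST1H1B in H460 ran from -0.058 to 0.038, HIST1H1C from -0.047 to 0.069, HIST1H1D from -0.058 to 0.080, HIST1H2AB from -0.36 to 0.023, HIST1H2BC from -0.024 to 0.040, HIST1H2BE from -0.46 to 0.49, HIST2H2BE from -0.060 to 0.12, HIST1H3D from -0.45 to 0.17 and HIST2H3A from -0.17 to 0.073. HIST2H3C in ABC-1 ran from -0.30 to 0.68, and in H2023 from -0.15 to 0.37. The cause was not tested. Rows of few reads limit what can be called: HIST1H2AG, HIST1H2BE, HIST1H3C and HIST1H3D in H460 rest on few reads.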
